A study of Homo sapiens with 4 samples.

Results

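The 9 genes described here carry the first steps of T cell receptor signalling, and they were followed by RNA sequencing in a human cell line with lowered FYB1. They are LCK, ZAP70, LAT, PLCG1, PLCG2, VAV1, PTPRC, PTPN22 and UBASH3A. The rule that picks them reads gene symbols in GENCODE 29 and no measured value. The members and the rule were, however, chosen with earlier results of these data known. All 9 are among the 28274 genes of the deposited table. The cell line is the one that the labels call J-gammal. There were 2 control libraries, titled NC with the source given as no treatment and the genotype as none, and 2 libraries with the genotype FYB1 knockdown, titled sh-FYB1. The labels do not say whether the controls carried a control construct, whether the knockdown libraries share 1 construct, or whether each library had a culture of its own. The p-values therefore measure the spread between libraries, which may be technical, and an effect of the construct cannot be told apart from that of FYB1. A Jurkat derivative called J.gamma1 is known for its lack of the PLC-gamma1 protein. The labels do not state that J-gammal is that line, and RNA levels do not give protein levels.

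The members work in sequence at the T cell membrane. When the receptor binds its ligand, the kinase LCK phosphorylates the receptor chains, the kinase ZAP70 docks there and phosphorylates the adaptor LAT, and LAT gathers phospholipase C-gamma and, through other adaptors, the exchange factor VAV1. Phospholipase C-gamma splits a membrane lipid into inositol trisphosphate, which releases calcium, and diacylglycerol, which activates Ras and protein kinase C. The phosphatase CD45, encoded by PTPRC, keeps LCK ready for activation, while PTPN22 and UBASH3A restrain the kinases. FYB1 encodes the adaptor ADAP, which joins the same membrane complexes and links them to integrins.

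Promoter windows of the members are shown because the 9 genes differ widely in level and the pair PLCG1 and PLCG2 is an example of related enzymes with different promoters. Each window runs from 250 bases before to 50 bases after a start site in RefSeq (GRCh38.p14), and 8 of the 9 members were matched, with 12 windows in all. Capitals mark the word AGGAAGT, part of the binding motif of ETS factors, and the GC box GGGCGG, each searched on both strands, where the reverse complements read ACTTCCT and CCGCCC. Of 35116 promoter windows of the same length, 8.24% held the ETS word and 45.0% the GC box. The windows are the second of LCK (chr1:32273871-32274170, plus strand), and those of VAV1 (chr19:6772458-6772757, plus strand), PTPRC (chr1:198638790-198639089, plus strand), PLCG1 (chr20:41137293-41137592, plus strand) and PLCG2 (chr16:81738791-81739090, plus strand).
LCK second window: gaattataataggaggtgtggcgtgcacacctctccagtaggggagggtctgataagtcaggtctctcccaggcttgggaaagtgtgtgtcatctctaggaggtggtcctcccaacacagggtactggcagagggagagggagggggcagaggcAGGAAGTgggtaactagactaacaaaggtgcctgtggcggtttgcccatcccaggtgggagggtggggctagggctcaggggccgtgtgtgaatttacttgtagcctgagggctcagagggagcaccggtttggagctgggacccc
VAV1: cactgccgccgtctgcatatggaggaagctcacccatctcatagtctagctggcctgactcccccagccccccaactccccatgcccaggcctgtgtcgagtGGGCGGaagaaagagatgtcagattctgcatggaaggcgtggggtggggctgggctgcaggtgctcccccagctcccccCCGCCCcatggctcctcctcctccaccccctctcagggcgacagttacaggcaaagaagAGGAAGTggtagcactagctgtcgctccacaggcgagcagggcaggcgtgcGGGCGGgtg
PTPRC: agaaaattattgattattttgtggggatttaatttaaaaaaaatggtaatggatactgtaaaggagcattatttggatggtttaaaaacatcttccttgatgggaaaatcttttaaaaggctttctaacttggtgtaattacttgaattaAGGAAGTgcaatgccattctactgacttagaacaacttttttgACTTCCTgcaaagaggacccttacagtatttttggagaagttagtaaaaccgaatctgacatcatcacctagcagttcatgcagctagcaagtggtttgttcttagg
PLCG1: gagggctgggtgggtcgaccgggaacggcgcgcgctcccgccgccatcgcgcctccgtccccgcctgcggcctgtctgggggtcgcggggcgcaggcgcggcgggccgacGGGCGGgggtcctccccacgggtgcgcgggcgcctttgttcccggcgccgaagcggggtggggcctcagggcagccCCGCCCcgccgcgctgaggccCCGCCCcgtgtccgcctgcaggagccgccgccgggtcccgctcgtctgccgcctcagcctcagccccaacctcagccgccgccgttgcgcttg
PLCG2: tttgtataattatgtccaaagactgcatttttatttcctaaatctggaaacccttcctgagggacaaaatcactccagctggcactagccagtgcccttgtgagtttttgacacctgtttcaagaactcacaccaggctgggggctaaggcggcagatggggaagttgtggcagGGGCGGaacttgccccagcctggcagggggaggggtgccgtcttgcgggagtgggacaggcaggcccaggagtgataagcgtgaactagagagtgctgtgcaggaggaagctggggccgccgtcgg

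The ETS word stood in 4 of the 12 windows, which belong to 3 members, LCK (once in each of its 2 windows), VAV1 (once) and PTPRC (2 times). The PLCG1 window held 47 CG pairs and a GC content of 81.0%, and 97.6% of all windows held fewer CG pairs. The PLCG2 window held 8 CG pairs with a GC content of 56%, against a median of 14 CG pairs over all windows. The GC box stood in 5 of the 12 windows, 1 window each of 5 members, with 4 copies in the third ZAP70 window, 3 each in PLCG1, VAV1 and the second LAT window, and 1 in PLCG2. These matches describe letters and do not show that a factor binds there.

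Related genes can be told apart by short reads only where their sequences differ, so the longest run of identical bases between coding sequences was found for each related pair. PLCG1 and PLCG2 share at most 20 bases in a row, which lie in exon 12 of both (chr20:41163985-41164004 and chr16:81893773-81893792, plus strand, hg38). VAV1 and VAV2 share the longest run of the 6 pairs examined, 30 bases in exon 15 of VAV1 (chr19:6832171-6832200, plus strand) and exon 17 of VAV2 (chr9:133785776-133785805, minus strand).
PLCG1 and PLCG2: atgggctgtcgctgcattga
VAV1 and VAV2: gaagtggatggagcagtttgagatggccat
The longest run was 20 bases between ZAP70 and SYK, 17 between LCK and FYN, 17 between VAV1 and VAV3, and 14 between UBASH3A and UBASH3B. No window of 50 bases was identical in any of the 6 pairs.

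The deposited values are FPKM, reads per kilobase of exon relative to a library total. Whole reads could be recovered from them, and they sum to 16693113 to 20251864 per library. Mitochondrial genes held 4.03% to 4.09% of recovered reads in the controls and 4.92% to 5.14% in the knockdown libraries, and the part of this in the results was not tested. The control levels of FYB1, the targeted gene, were 17.6 and 20.1 FPKM, and its knockdown levels were 6.18 and 4.53 FPKM. Its log2 fold change on the log2(FPKM + 1) scale was -1.65 ± 0.15 (SE; limma-trend adjusted p = 0.0398). Without knockdown library 1 or 2 the limma-trend value was -1.84 or -1.46, and the call was lost. Over 12 alternatives that kept all 4 libraries, limma-voom among them, the limma adjusted p lay between 3.87e-08 and 0.264. Limma-voom on recovered reads gave -1.83 ± 0.15 and an adjusted p of 0.000419. All 9 T cell marker genes examined were tested and the sum of their levels was 1175 and 1075 FPKM in the controls and 844 and 1021 FPKM in the knockdown libraries. Of 7 myeloid markers all were under 1 FPKM in every library. Of 8 B cell markers 7 were under 1 FPKM in every library, while CD79A, a chain of the B cell receptor complex, stood at 24.5, 21.2, 11.1 and 15.8 FPKM in the same order of libraries, and fell by limma-voom (adjusted p = 0.0297). The labels name 1 cell line for all 4 libraries, and bulk values do not show whether all of its cells changed alike. Of the 5 NK and cytotoxic markers in the table NKG7 and PRF1 were above 1 FPKM, and the measured erythroid, platelet and epithelial markers were all below it.

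The members spanned more than 2 orders of magnitude, from LCK with a control mean of 272 ± 5.17 FPKM (SD, n = 2) to LAT with 0.90 ± 0.02 FPKM. LCK ranked 131 of 28274 genes by control mean, and 99.0% of the 13172 tested genes stood lower. ZAP70 followed at 67.3 ± 0.42, VAV1 at 51.9 ± 1.59, PTPRC at 41.1 ± 4.73 and PLCG1 at 38.9 ± 0.14 FPKM. PTPRC and PLCG1 were not separated by their spread, since the control values of PTPRC lay on both sides of those of PLCG1. UBASH3A stood at 10.5 ± 0.15, PTPN22 at 5.21 ± 0.29 and PLCG2 at 2.64 ± 0.16 FPKM, each with control values that did not overlap those of its neighbours. In the knockdown libraries the values of ZAP70 overlapped those of VAV1, those of VAV1 overlapped those of PTPRC, and those of PTPRC overlapped those of PLCG1.

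**Figure D1:**
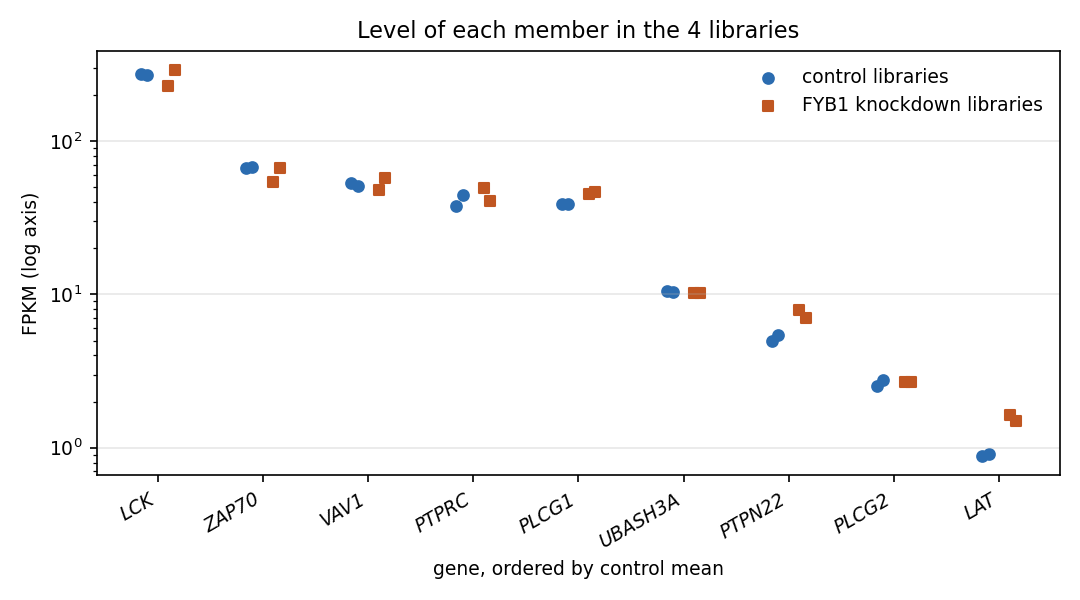
Level of the 9 members in FPKM on a log axis, 1 point per library, with controls as circles and FYB1 knockdown libraries as squares. LCK lies near 270 FPKM and LAT near 1 FPKM, and the knockdown points lie above the control points for PLCG1, PTPN22 and LAT.

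The question put to the 9 genes was whether their transcripts differ in level once FYB1 is lowered. PTPN22 was higher in the knockdown libraries and passed the threshold by limma-voom on recovered reads, while no member passed it by limma-trend on log2(FPKM + 1). The limma-trend count was thus 0 of 9 at an adjusted p under 0.05, where 0.205% of the 13172 tested genes were called, and 2 of 9 (LAT and PTPN22) were under 0.05 before adjustment, a level that 23.4% of tested genes reached. A count of 0 by limma-trend with 2 libraries a group does not show that levels did not differ. By limma-voom 1 of 9 was called, against 7.74% of tested genes in either direction, 1.94% higher and 5.8% lower. The groups did not overlap for 3 members that were higher in the knockdown libraries (LAT, PLCG1 and PTPN22), a pattern that 26% of tested genes showed, and for 2 that were lower (ZAP70 and UBASH3A), as did 34.6% of tested genes. LAT passed the filter on low values only through its knockdown libraries, where it is high, so its place in these counts supports nothing. The median log2 fold change of the members was 0.02, and that of all tested genes was -0.03. With 2 libraries a group an exact permutation test of a single gene cannot give a two-sided p below 0.333.

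LCK, the Src family kinase that starts the cascade, had control levels of 276 and 269 FPKM and knockdown levels of 229 and 291 FPKM, listed here and in what follows with library 1 before library 2 of a group. The 2 knockdown values lay on either side of both controls. The log2 fold change was -0.08 ± 0.18 (SE; 95% interval -0.53 to 0.38; limma-trend adjusted p = 0.811). ZAP70, the kinase that binds the phosphorylated receptor chains, stood at 67.0, 67.6, 54.2 and 66.5 FPKM in the same order. Both knockdown values were below both controls, but knockdown library 2 lay close to them. Its log2 fold change was -0.16 ± 0.14 (95% interval -0.52 to 0.19; limma-trend adjusted p = 0.501), -0.31 without knockdown library 2 and -0.02 without knockdown library 1.

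LAT, the membrane adaptor on which the signalling complex is built, stood at 0.88 and 0.91 FPKM in the controls and at 1.64 and 1.5 FPKM in the knockdown libraries. These values rest on 65, 68, 134 and 136 recovered reads, and both knockdown values were above both controls. LAT had a control mean under the filter of 1 FPKM and entered the test only through its knockdown values. The log2 fold change was 0.44 ± 0.17 on the log2(FPKM + 1) scale (limma-trend adjusted p = 0.200) and 0.80 ± 0.23 on recovered reads (limma-voom adjusted p = 0.0575), so it passed neither test. By limma-voom the LAT value was 0.73 to 0.86 when 1 library was left out. Over 11 alternatives that kept all 4 libraries its limma adjusted p lay between 0.0575 and 0.352.

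The sources used here do not show whether the reads assigned to LAT are all that its transcripts gave. LAT (chromosome 16, 28984826 to 28990783, plus strand, hg38) overlaps AC109460.3, a noncoding gene on the same strand, over nearly its whole length, and all 807 bases of its longest coding sequence are also annotated as exon of that gene. Of the 1448 bases of that transcript 1440 are shared, and of the 4430 bases of all LAT exons 2112, or 47.7%, are shared on the same strand. AC109460.3 itself stood at 0.25, 0.15, 0.15 and 0.20 FPKM. Levels were lower with more sharing across coding genes, a description with no test. The 13368 coding genes with no exon base shared on the same strand had a median of 4.18 FPKM, and the 2120 with up to 40% shared had 3.92. The 200 with 40% to 60% shared had 0.62, the 212 with 60% to 90% had 0.18, and the 105 with over 90% had 0.04 FPKM. Single genes went both ways, and the 2 given here were named after their values were seen. CDC42, a small GTPase found in nearly all cells, shares its whole coding sequence of 573 bases with another gene on the same strand. It stood at 0.23 to 0.32 FPKM. LIME1 shares 60.3% of its exon bases on the same strand and had a mean of 2.02 FPKM, above the median of its group. The sources used here do not give how reads that fall in 2 genes were counted, and the part of sharing in the level of LAT was not tested.

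**Figure D2:**
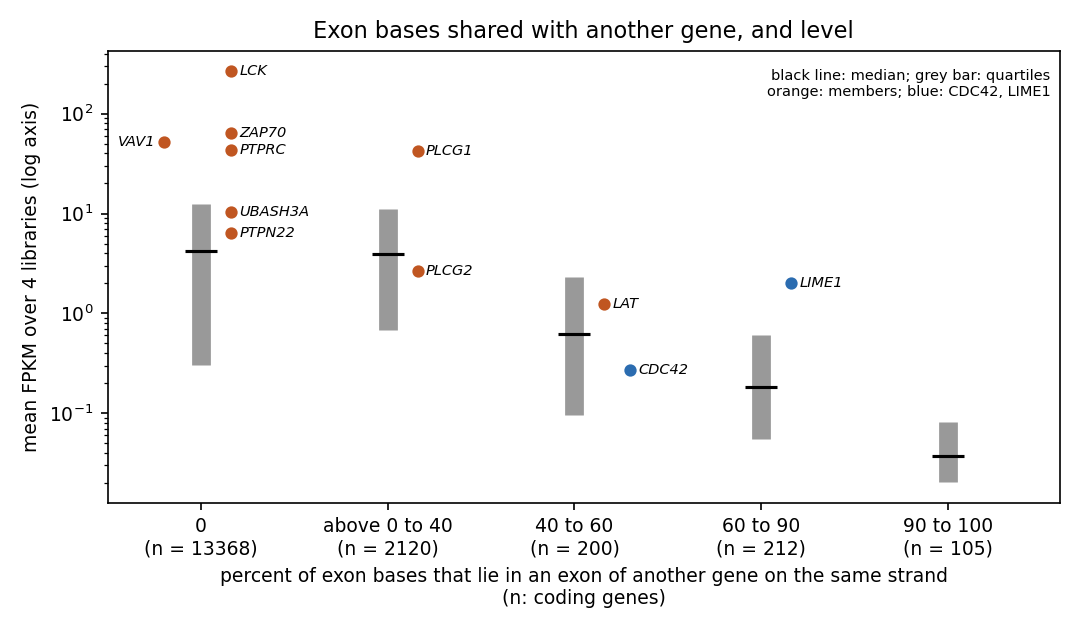
Mean FPKM over the 4 libraries (log axis) of coding genes grouped by the percent of their exon bases that lie in an exon of another gene on the same strand. Black lines are medians, grey bars are quartiles, orange points are the members and blue points are CDC42 and LIME1; LAT sits in the group with 40% to 60% shared, whose median is 0.62 FPKM.

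PLCG1, the main phospholipase C-gamma of T cells, had control levels of 38.8 and 39.0 FPKM and knockdown levels of 45.3 and 46.6 FPKM, from 6233 to 9206 reads. Replicates agreed closely within each group and both knockdown values lay above both controls. The ratio of the knockdown mean to the control mean was 1.18. On the log2(FPKM + 1) scale the difference was 0.24 ± 0.11 (95% interval -0.03 to 0.50; limma-trend adjusted p = 0.243), and limma-voom gave 0.24 ± 0.13 with an adjusted p of 0.238. It lay between 0.22 and 0.48 in all 20 alternatives, with adjusted p between 0.111 and 0.847. PLCG1 (chromosome 20, 41136960 to 41196801, plus strand, hg38) shares 5.58% of its 9648 exon bases with genes on the other strand, among them PLCG1-AS1, and whether counting used strand is unknown.

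PLCG2, the related enzyme that B cells use most, stood at 2.53, 2.75, 2.70 and 2.68 FPKM, controls first. The 2 knockdown values lay between the 2 controls. Its log2 fold change was 0.02 ± 0.11 (95% interval -0.26 to 0.30; limma-trend adjusted p = 0.922). The level of PLCG1 was 15.4 and 14.2 times that of PLCG2 in the control libraries and 16.8 and 17.4 times it after knockdown. PLCG1 made up 50.6% to 53.9% of the summed FPKM of the 13 phospholipase C genes present in the table.

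VAV1, the exchange factor that activates Rac downstream of the receptor, stood at 53.0, 50.7, 47.7 and 57.8 FPKM. The knockdown values lay on either side of both controls. Its log2 fold change was 0.02 ± 0.14 (95% interval -0.32 to 0.36; limma-trend adjusted p = 0.944), -0.12 without knockdown library 2 and 0.15 without knockdown library 1. Of the summed FPKM of VAV1, VAV2 and VAV3, VAV1 held 77.3% and 75.1% in the control libraries and 70.1% and 75.4% after knockdown.

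PTPRC, the gene of CD45, stood at 37.8 and 44.5 FPKM in the controls and at 49.4 and 40.8 FPKM in the knockdown libraries. The groups overlapped. The log2 fold change was 0.13 ± 0.15 (95% interval -0.25 to 0.50; limma-trend adjusted p = 0.611).

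PTPN22, a phosphatase that removes activating phosphates from LCK and ZAP70, had control levels of 5.0 and 5.41 FPKM and knockdown levels of 7.94 and 7.0 FPKM. They rest on 375, 409, 659 and 646 reads. Both knockdown values lay well above both controls, and the ratio of the means was 1.44. The log2 fold change was 0.45 ± 0.10 by limma-trend (95% interval 0.19 to 0.71; adjusted p = 0.128) and 0.52 ± 0.14 by limma-voom, where the adjusted p was 0.0483. By limma-voom the PTPN22 value was 0.43 to 0.61 when 1 library was left out, and the call was lost in most of those fits. It is a call at the edge of the threshold. The direction was the same in all 20 alternatives. In the 12 that kept all 4 libraries the limma adjusted p lay between 0.0284 and 0.310.

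UBASH3A, a suppressor of receptor signalling, stood at 10.6 and 10.4 FPKM in the controls and at 10.2 and 10.2 FPKM in the knockdown libraries. The knockdown values were just below both controls. The log2 fold change was -0.03 ± 0.09, and its 95% interval of -0.26 to 0.19 was the narrowest of the 9 members (limma-trend adjusted p = 0.836). UBASH3B, its relative with wider expression, stood at 8.21, 8.01, 9.95 and 9.21 FPKM, higher in both knockdown libraries but not called (limma-trend adjusted p = 0.234; limma-voom adjusted p = 0.214).

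**Figure D3:**
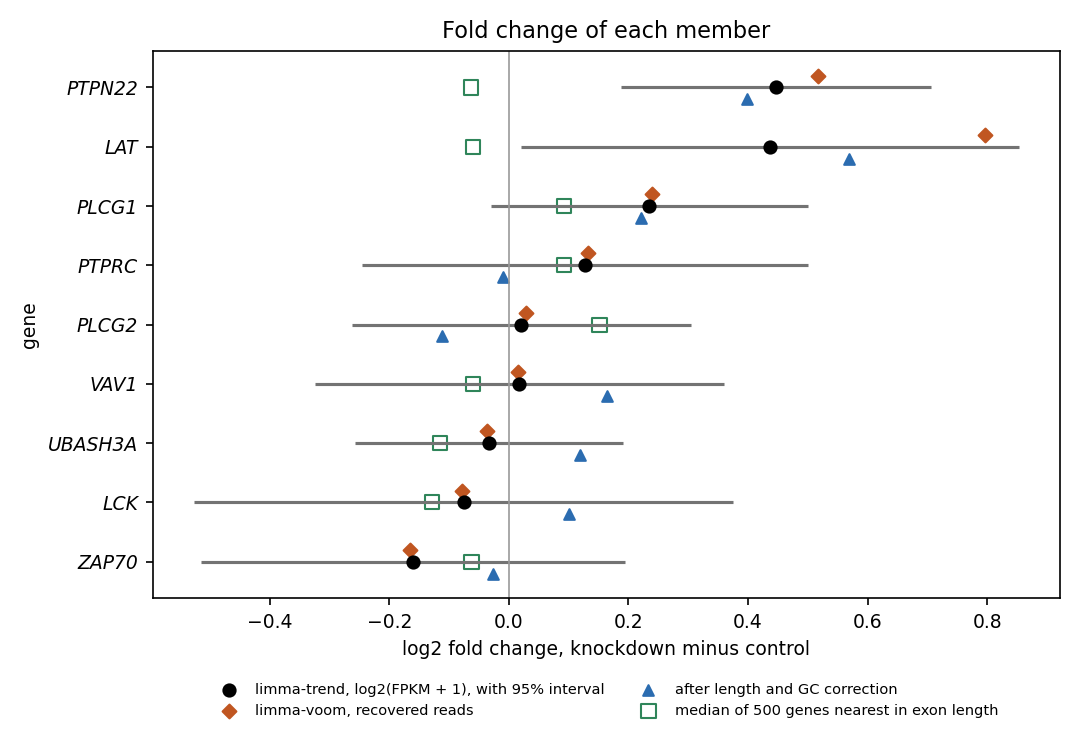
Log2 fold change of each member, knockdown minus control, by limma-trend with its 95% interval (circles and lines), by limma-voom (diamonds) and after a correction for exon length and GC content (triangles), beside the median of the 500 tested genes nearest in exon length (open squares). PTPN22 and LAT have the highest values, 0.45 and 0.44 by limma-trend.

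The fold change of a gene moved with its exon length and GC content across all tested genes (Spearman correlation of 0.22 with length over 13172 genes and -0.29 with GC content over 13165 genes, a description across genes of the same libraries). Knockdown library 1 showed this more than knockdown library 2. From the third to the tenth of 10 equal groups by length the median log2 ratio to the controls ran from -0.29 to 0.21 in library 1 and from -0.093 to 0.082 in library 2, while the shortest genes stood at 0.15 and 0.042. The members differ in both. Among genes nearest in length the median log2 fold change was 0.09 for PLCG1 (9648 bases) and for PTPRC (9168 bases), 0.15 for PLCG2 (13416 bases), -0.06 for PTPN22 (4503 bases) and -0.13 for LCK (3339 bases). After removal of a smooth trend on length and GC content the values were 0.22 for PLCG1, 0.40 for PTPN22 and 0.57 for LAT, close to or above those before, and none was called (limma-trend adjusted p = 0.114, 0.0639 and 0.118). LCK then stood at 0.10, UBASH3A at 0.12, PLCG2 at -0.11 and PTPRC at -0.01, each with the opposite sign to its uncorrected value. The scale also depends on the library total. With summed reads as library totals the median of all tested genes moved from -0.03 to 0.08, PLCG1 stood at 0.37 and PTPN22 at 0.57, and LCK and UBASH3A changed sign, to 0.06 and 0.09.

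The other genes of the pathway were described with 5 lists of 84 genes, of which 81 were in the table and 74 were tested. The lists were chosen with earlier results of these data known. Limma-trend called 0 of 74, and 19 were under 0.05 before adjustment, as were 23.4% of all tested genes. Limma-voom called 6, of which 3 rose (SOS1, SOS2 and DOK2) and 3 fell (HRAS, SLA and RHOH), shares to be read against 1.94% and 5.8% of all tested genes. The median log2 fold change of the 74 was 0.09, with 43 above and 31 below 0. Most of the limma-voom fits without 1 library lost the greater part of these 6 calls, and no gene kept its call in all of them. The limma-voom log2 fold changes in these fits lay between 0.52 and 0.88 for SOS1, 0.47 and 0.76 for SOS2, and 0.42 and 0.73 for DOK2. They lay between -1.08 and -0.55 for HRAS, -0.69 and -0.62 for SLA, and -0.71 and -0.59 for RHOH.

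The Ras branch held changes in both directions. SOS1 and SOS2, the exchange factors that load Ras with GTP after recruitment to LAT, stood at 2.21 and 2.83 against 4.61 and 3.60 FPKM, and at 4.87 and 5.41 against 8.70 and 7.13 FPKM, in controls against knockdown libraries. By limma-voom the log2 fold changes were 0.70 ± 0.17 for SOS1 and 0.62 ± 0.14 for SOS2 (adjusted p = 0.0339 and 0.0309). HRAS, one of the 3 Ras GTPases, fell from 27.9 and 28.6 to 13.3 and 19.3 FPKM (limma-voom -0.81 ± 0.17, adjusted p = 0.0229). SOS1, SOS2 and HRAS have 9263, 6938 and 1854 exon bases. Their log2 fold changes by limma-trend were 0.53, 0.53 and -0.78, and the medians of genes nearest in length were 0.08, 0.03 and -0.18. Corrected for length and GC content, the 3 genes stood at 0.39, 0.46 and -0.53 (limma-trend adjusted p = 0.103, 0.0655 and 0.0623). How much of each change goes with length was not tested. In the main fit limma-trend called none of the 3 (adjusted p = 0.151, 0.126 and 0.128). With the replicate block and no correction it called SOS2 and HRAS (adjusted p = 0.0336 and 0.00999). With crossed block numbers, added after the data were seen, it called all 3 (adjusted p = 0.0274, 0.0225 and 0.0249). With the replicate block and the correction it called none of them (adjusted p = 0.201, 0.144 and 0.121). Over all alternatives the adjusted p lay between 0.0111 and 0.484 for SOS1, 0.00768 and 0.358 for SOS2, and 0.00529 and 0.315 for HRAS. The list of 16 had a median of 0.14 with 11 genes above 0.

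Among 24 negative regulators limma-voom called 2, beside 7.74% of all tested genes. DOK2, an adaptor that brings the Ras inhibitor RASA1 to the membrane, rose from 27.3 and 24.5 to 34.7 and 43.0 FPKM (0.58 ± 0.14, adjusted p = 0.0335). SLA, an adaptor that promotes removal of receptor chains from the surface, fell from 49.9 and 47.5 to 30.5 and 31.2 FPKM (-0.66 ± 0.12, adjusted p = 0.0168). RHOH, a GTPase of blood cells that helps ZAP70 reach the receptor, fell from 57.0 and 54.5 to 34.1 and 37.1 FPKM (-0.65 ± 0.12, limma-voom adjusted p = 0.0182). It was the single limma-voom call among the 11 tested genes of the list headed by the VAV paralogs, beside 7.74% of all tested genes. SLA, DOK2 and RHOH were called by limma-trend with crossed block numbers, added after the data were seen (adjusted p = 0.0207, 0.0261 and 0.0217). Without a block it called them only after the length and GC correction (adjusted p = 0.0350, 0.0310 and 0.0427), at -0.64, 0.78 and -0.64. It then also called SH2D2A, an adaptor that binds LCK, at 0.59 (adjusted p = 0.04997, named after its value was seen). The correction raised the limma-trend calls over all genes from 27 to 221. With the replicate block added 0 genes were called, and SLA, DOK2 and RHOH had limma-trend adjusted p of 0.108, 0.0887 and 0.115. Over all alternatives the adjusted p lay between 0.0261 and 0.376 for DOK2, 0.00659 and 0.383 for SLA, and 0.00623 and 0.416 for RHOH.

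The kinases and adaptors around the members had no call by either test among 17 tested genes, and their median was 0.05. By limma-trend 3 were under 0.05 before adjustment, beside 23.4% of all tested genes. FYN, the second Src kinase of T cells, stood at 20.8, 21.0, 20.0 and 22.6 FPKM, controls first, and SYK, the relative of ZAP70, at 17.3, 15.4, 19.9 and 20.7 FPKM (limma-trend adjusted p = 0.912 and 0.186). GRB2, the adaptor that carries SOS to LAT, stood at 65.2, 61.3, 46.4 and 50.7 FPKM, lower in both knockdown libraries but not called (limma-voom -0.38 ± 0.12, adjusted p = 0.0762). Its limma-trend value was -0.37, and it was -0.24 with summed reads as library totals and -0.093 under quantile normalization. By limma-voom the GRB2 value was -0.44 to -0.32 when 1 library was left out. Over 12 alternatives that kept all 4 libraries its limma adjusted p lay between 0.0641 and 0.515. SH2D1A, the adaptor SAP, stood at 54.9, 51.0, 56.1 and 54.5 FPKM.

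Of the 13 other phospholipase C genes 11 were in the table and 6 were tested, with no call by either test and a median of -0.12. By limma-trend 1 was under 0.05 before adjustment, beside 23.4% of all tested genes. PLCL2, a member of the family without enzyme activity, had the highest level, 11.1 and 11.9 FPKM in the controls and 15.6 and 14.2 FPKM in the knockdown libraries (limma-voom 0.38 ± 0.12, adjusted p = 0.0797). PLCB3, an enzyme that G proteins activate, stood at 8.18, 8.99, 7.21 and 8.52 FPKM. PLCB2, PLCD1, PLCD3 and PLCH1 had means of 3.25, 4.34, 3.18 and 1.30 FPKM over the 4 libraries. VAV2 and VAV3 stood at 7.16, 7.83, 8.46 and 8.83 FPKM and at 8.38, 8.99, 11.9 and 10.1 FPKM, higher in both knockdown libraries and not called (limma-voom adjusted p = 0.305 and 0.123).

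**Figure D4:**
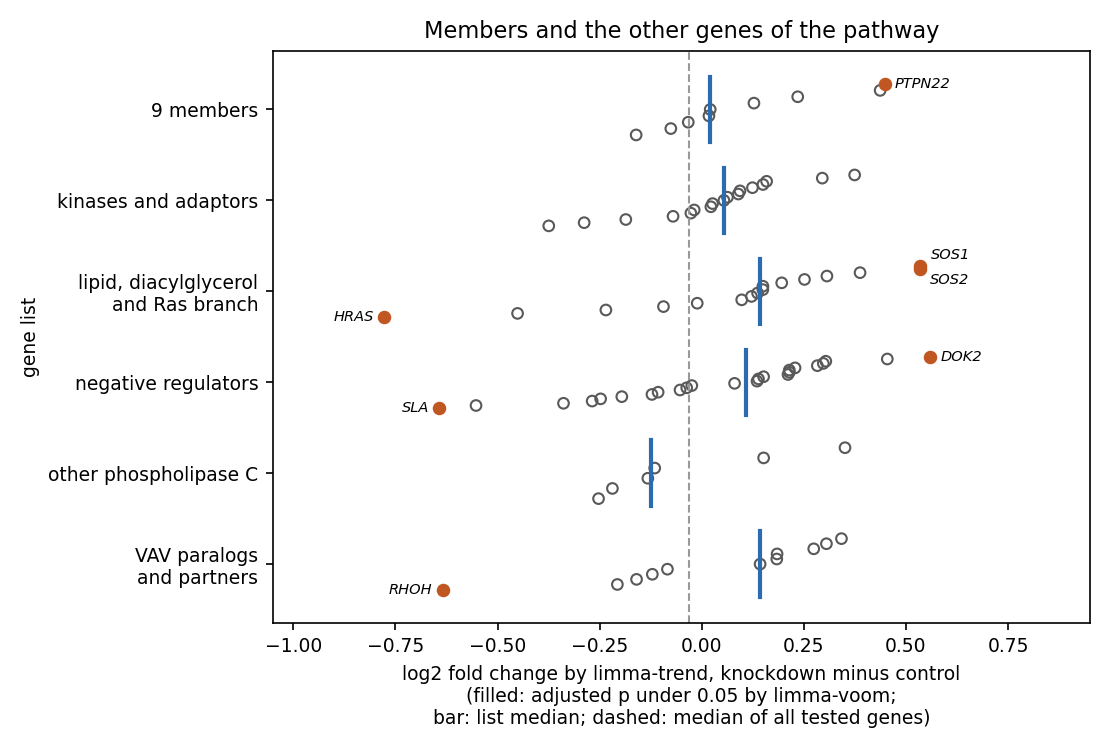
Log2 fold change by limma-trend of the 9 members and of the tested genes in 5 pathway lists, 1 point per gene, filled where limma-voom gave an adjusted p under 0.05, with the list median as a bar and the median of all tested genes, -0.03, as a dashed line. PTPN22 is the filled point among the members, and HRAS, SLA and RHOH lie on the lower side.

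The genes whose values across the 4 libraries were most like those of PLCG1, as log2 ratios to the control mean among 7741 other genes averaging 5 FPKM or more, were PPP1R3B, KLF13 and MINK1. Their root mean square distances from PLCG1 were 0.0087, 0.0101 and 0.0110, and 142 genes lay within 0.05. KLF13, for example, stood at 19.0 and 19.1 FPKM in the controls and at 22.3 and 22.5 FPKM in the knockdown libraries. With 4 libraries this likeness is a description only.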

How the data were processed

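Total RNA taken up in Trizol went into Illumina TruSeq libraries, per the labels. HISAT2 2.0.5 and the build hg38 are named in the submitters' processing notes. The sources used here give no counting program, annotation or use of strand. The deposited table gives no unit. Its values were identified as FPKM, as the authors scaled them per kilobase of merged exon, because each value times the GENCODE 29 exon length of its gene came out, within 0.001, as whole multiples of a single step in each library for 100% of genes. This gave whole reads per gene and the authors' library totals of 16648943 to 20480491. Merged exon length counts every annotated isoform, so levels depend on it.

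Limma-trend (limma 3.58.1, R 4.3.3) on log2(FPKM + 1) was the main test, over 13172 genes averaging 1 FPKM or more, with Benjamini-Hochberg adjustment over all of them and a threshold of 0.05. Limma-voom on recovered reads with the authors' totals was the alternative test. Intervals of 95% are for single genes. GC content was that of the longest transcript, and the smooth trend was a loess fit with a span of 0.5. Other alternatives were other pseudocounts, filters, library totals and scalings, a replicate block, the trend correction and leaving out each library. The fits were tested on simulated data, where limma-trend had much less power than limma-voom. The simulation changed few genes and had no drift with length or GC content, so it does not give the power of either test here. The members, lists and rules were chosen with earlier results of these data known. Named genes are the members, their family, FYB1, the pathway genes called by either test (otherwise the 2 with the highest mean in a list), and the 3 genes most like PLCG1. Marker genes, LIME1, CDC42 and SH2D2A were named after their values were seen.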

Additional observations from a re-analysis of the deposited data

How the results depend on the processing

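By limma-trend the number of members called was 0 in each leave-one-out fit, and by limma-voom it was 1, and 0 to 3 in leave-one-out fits. The number of pathway genes called by limma-trend was 0, and 4 after the length and GC correction. By limma-voom it was 6, and 1 to 22 in leave-one-out fits. Their median log2 fold change was 0.18 after quantile normalization and 0.22 when library totals were sums of reads. The labels do not say whether equal replicate numbers mark paired libraries. Over 13172 tested genes the difference of control 1 and 2 had a correlation of -0.21 with that of knockdown 1 and 2. That value cannot decide the matter, because the knockdown libraries also differ in their drift with length and GC content. With the replicate block limma-trend called 781 genes in place of 27, 0 members and 2 pathway genes, and with the block and the length and GC correction 0 genes. A block with crossed numbers, added after the data were seen, called 1910 genes, 1 member and 8 pathway genes. The limma-voom leave-one-out fits were also added after the data were seen.

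PTPN22 passed the threshold by limma-voom (0.52) and in the crossed block (0.45), and its leave-one-out range was 0.37 to 0.53 by limma-trend and 0.43 to 0.61 by limma-voom. Under quantile normalization LCK, ZAP70, PLCG2 and UBASH3A changed sign, to 0.34, 0.14, -0.039 and 0.032. With summed reads as totals LCK, UBASH3A and PLCB3 did, to 0.062, 0.093 and 0.0073. After the length and GC correction, with or without the replicate block, LCK, PLCG2, PTPRC, UBASH3A and PLCB3 did, to 0.10, -0.11, -0.0090, 0.12 and 0.023. Leave-one-out ranges that crossed 0 were -0.25 to 0.10 for LCK, -0.023 to 0.065 for PLCG2, -0.12 to 0.15 for VAV1 and -0.0074 to 0.26 for PTPRC by limma-trend, and -0.25 to 0.10, -0.032 to 0.090, -0.12 to 0.16 and -0.0073 to 0.27 by limma-voom, where VAV1 stood at -0.016 without control 2. The ranges by limma-voom were -0.31 to -0.02 for ZAP70 and 0.73 to 0.86 for LAT. The FYB1 call ended when all genes with a mean over 0 entered (-1.65, adjusted p = 0.264), without a mean trend (-1.65, adjusted p = 0.0772) and with the block and the length and GC correction (-1.78, adjusted p = 0.0508), and its leave-one-out range was -1.84 to -1.46. LAT and PLCG2 have no value with a minimum mean of 5 FPKM. The causes were not tested.

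LAT had the fewest reads of the members, 65 to 136 per library.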

Other observations

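Ratios between related genes within a library were as follows, with no test. The level of LCK was 13.3 and 12.8 times that of FYN in controls 1 and 2 and 11.5 and 12.9 times in knockdown libraries 1 and 2. The level of ZAP70 was 3.86 and 4.38 times that of SYK in the controls and 2.73 and 3.21 times in the knockdown libraries, lower in both. The level of UBASH3A was 1.29 times that of UBASH3B in each control and 1.03 and 1.11 times in the knockdown libraries. LCK stood at 4.12, 3.98, 4.22 and 4.38 times the level of ZAP70 in the same order of libraries.

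Of the 9 T cell markers 6 were lower and 3 higher in both knockdown libraries than in both controls, beside 34.6% and 26% of all tested genes. Limma-trend called 0 of 9, and 4 were under 0.05 before adjustment, beside 23.4% of all tested genes. Limma-voom called 1 higher and 1 lower, beside 1.94% and 5.8%. The median log2 fold change of the markers was -0.38 by limma-trend and -0.16 after the length and GC correction. Their median exon length was 2844 bases, and that of all tested genes was 4267 bases. CD3D, a chain of the receptor complex, fell from 478 and 419 to 224 and 299 FPKM by limma-voom (adjusted p = 0.0200). CD3E, CD247, CD2, CD5 and CD7 were lower and not called, at -0.39, -0.39, -0.70, -0.21 and -0.40 by limma-voom. CD28, the costimulatory receptor whose signals join this pathway, rose from 6.05 and 5.80 to 11.4 and 9.6 FPKM by limma-voom (adjusted p = 0.0121). TRAC, the constant region of the receptor alpha chain, and CD3G were higher and not called, at 0.16 and 0.23 by limma-voom.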
